A study of Homo sapiens with 14 samples.

Results

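H3K27ac, acetylation of lysine 27 on histone H3, lies at active promoters and enhancers. In Jurkat cells 1221 regions carried it in both control libraries and in neither library made after knockdown of SATB1. These regions, called lost here, were found by merging the peaks of the 4 H3K27ac lists on chromosomes 1 to 22 and X wherever they shared at least 1 bp. They were 5.95% of 20526 merged regions and 8.11% of the 15052 regions called in both control libraries. Another 12261 regions were called in all 4 lists (retained), 1570 in both control lists and 1 knockdown list (partly kept), and 537 in both knockdown lists alone (gained). The H3K27ac calls chose the regions, so their calls and signal are given as a description with no test.

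Jurkat is an established human line from a T cell acute lymphoblastic leukaemia (T-ALL). Per the labels, cells received a lentivirus with a control shRNA (shCtrl) or with an shRNA against SATB1 (shSATB1). Chromatin was profiled by CUT&Tag, in which an antibody holds a transposase near its target so that the DNA beside it is cut and sequenced. H3K27ac has 2 libraries in shCtrl and 2 in shSATB1, CTCF has 3 in each arm, SATB1 has 2 in shCtrl, and Matrin 3 has 2 with no shRNA on the label. The labels do not name separate cultures or clones, and a peak list does not measure how far SATB1 protein fell.

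SATB1 is a DNA-binding protein abundant in thymocytes that organises chromatin into loops and recruits chromatin-modifying enzymes. CTCF is a zinc finger protein that stops cohesin-driven loops and often lies at promoters as well as at boundaries. Matrin 3 is a nuclear matrix protein that binds RNA and DNA. H3K27ac is written by the acetyltransferases CBP and p300, removed by histone deacetylases and read by bromodomain proteins.

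Each list gives a peak's position, its total signal and its maximum signal, which are the authors' values and carry no scaling between libraries. Read totals were not used here, so depth is unknown. In shCtrl the H3K27ac lists contained 17863 and 17141 peaks, with lowest total signals of 6836 and 6653. In shSATB1 they contained 17925 and 15972, with lowest total signals of 4405 and 4476. Leaving out a library removes a condition of the rule, so more regions can pass and the number of lost regions is bound to rise. Leaving out shCtrl replicate 1 gave 2008 and leaving out shCtrl replicate 2 gave 2383, while leaving out shSATB1 replicate 1 gave 2437 and shSATB1 replicate 2 gave 1591. In the SATB1 lists 6001 peaks began at the same base, 40.8% of the shorter list, so both were counted as 1 sample with no spread. The Matrin 3 lists held 24566 and 2105 peaks, and the longer one is used unless stated. H3K27ac lay at 12 of 12 T cell markers in every H3K27ac list, at 1 of 6 B cell, 1 of 6 myeloid and 1 of 3 neuronal markers, and at none of 4 erythroid or 5 epithelial and stromal markers.

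A small number of lost regions lay over gene starts. Of 15812 RefSeq promoter windows (GRCh38.p14, 250 bases before to 50 after the start, matched to 19974 protein-coding genes), lost regions covered 85, in 77 regions. The start used for a window can lie inside the annotated gene. IRF8 is annotated from 85899162, so its window and lost region lie inside the gene, more than 2 kb from its ends. The lost regions at the FRMD4B, NKX3-2, PALD1, TMEM181 and LOC124906010 windows also lay more than 2 kb from the ends of these genes. The 250 bases before the start are shown for 6 of them, 5′ to 3′ on the gene's strand, with CpG pairs in capitals, because the windows differ in CpG content. FAIM, CCR4 and NRAS follow from the rule for named genes. GADD45B, BMF and IRF8 were added after their values were seen, GADD45B as the highest ranked and the others as genes of apoptosis and of immune cells.
GADD45B, chr19:2475877-2476126, + strand: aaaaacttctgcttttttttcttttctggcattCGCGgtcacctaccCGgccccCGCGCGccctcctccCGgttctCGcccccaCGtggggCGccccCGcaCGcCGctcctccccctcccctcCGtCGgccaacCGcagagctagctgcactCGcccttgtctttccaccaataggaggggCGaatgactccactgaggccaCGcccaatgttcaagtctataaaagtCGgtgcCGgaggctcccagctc
BMF, chr15:40108880-40109129, - strand: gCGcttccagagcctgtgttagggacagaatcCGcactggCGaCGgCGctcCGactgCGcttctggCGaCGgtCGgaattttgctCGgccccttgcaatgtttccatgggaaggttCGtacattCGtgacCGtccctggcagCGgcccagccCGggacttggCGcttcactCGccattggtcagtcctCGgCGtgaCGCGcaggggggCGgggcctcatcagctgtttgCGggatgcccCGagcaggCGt
FAIM, chr3:138608521-138608770, + strand: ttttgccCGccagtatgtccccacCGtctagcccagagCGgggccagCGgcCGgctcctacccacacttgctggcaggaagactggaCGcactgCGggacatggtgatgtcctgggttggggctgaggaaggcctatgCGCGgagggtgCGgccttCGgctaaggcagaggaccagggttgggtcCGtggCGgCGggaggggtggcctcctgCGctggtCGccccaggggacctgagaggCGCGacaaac
NRAS, chr1:114716772-114717021, - strand: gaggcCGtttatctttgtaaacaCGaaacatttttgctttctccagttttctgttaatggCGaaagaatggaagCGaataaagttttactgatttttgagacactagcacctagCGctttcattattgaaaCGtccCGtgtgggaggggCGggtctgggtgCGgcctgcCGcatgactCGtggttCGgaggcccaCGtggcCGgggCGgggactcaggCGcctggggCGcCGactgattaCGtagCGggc
CCR4, chr3:32951394-32951643, + strand: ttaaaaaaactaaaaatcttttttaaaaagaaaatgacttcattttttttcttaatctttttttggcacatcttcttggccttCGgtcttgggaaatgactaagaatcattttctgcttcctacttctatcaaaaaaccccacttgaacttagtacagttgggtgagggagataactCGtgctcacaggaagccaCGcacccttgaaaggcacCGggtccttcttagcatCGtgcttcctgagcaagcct
IRF8, chr16:85902580-85902829, + strand: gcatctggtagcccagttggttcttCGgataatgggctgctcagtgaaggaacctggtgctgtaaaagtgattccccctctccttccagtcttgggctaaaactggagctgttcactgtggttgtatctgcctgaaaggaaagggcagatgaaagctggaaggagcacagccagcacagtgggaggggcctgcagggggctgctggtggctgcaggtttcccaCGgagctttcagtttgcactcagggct

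The first 4 of these promoters were CpG-rich, with 21 CpG pairs at GADD45B, 26 at BMF, 18 at FAIM and 20 at NRAS. CCR4 had 5 and IRF8 had 2. Over all 85 lost promoters the median was 20 CpG pairs (25th and 75th percentiles 14 and 28), against 21 (16 and 28) at 5368 retained promoters and 17 (6 and 26) at all promoters. Promoters under 10 CpG pairs made up 13 of the 85 (15.3%), 9.74% of the retained and 31.4% of all promoters. Most lost promoters were thus CpG-rich, as were most retained ones.

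Short motifs were counted in the same 250 bases on both strands. The ETS core CCGGAA was in 27.1% of lost promoters, 31.0% of retained and 19.3% of all. GGGCGG, the GC box, was in 64.7%, 68.7% and 56.0%, and can overlap CpG pairs that were already counted. CCAAT was in 25.9% of lost, 38.8% of retained and 34.4% of all promoters. The E-box CACGTG was in 15.3%, 9.54% and 7.83%, and the E-box CAGCTG in 12.9%, 11.5% and 13.3%. The GATA letters AGATAA were in 4.71%, 3.91% and 6.84%, the RUNX core TGTGGT in 7.06%, 7.62% and 8.90%, and the TATA letters TATAAA in 4.71%, 4.84% and 9.25%. Of the promoters printed, GADD45B held the TATA letters, the CCAAT box and the E-box CACGTG, and BMF held the CCAAT box, the E-box CAGCTG and the GC box. NRAS held the GATA letters, the E-box CACGTG and the GC box, CCR4 held the GATA letters and IRF8 the RUNX core. None of the 8 motifs was in the FAIM window. These matches describe the letters and do not mark bound sites.

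The H3K27ac signal over these promoters was low in the control lists. GADD45B, a stress-induced gene of growth arrest, stood highest of the 85, with maximum signals of 37 and 27 in shCtrl replicates 1 and 2 and a mean within-list percentile of 53.1. BMF, a pro-apoptotic BH3-only protein, had 27 and 26, at percentile 43.2. FAIM, an inhibitor of apoptosis, had 21 and 17, and NRAS, a small GTPase mutated in leukaemia, had 14 and 18. CCR4, a chemokine receptor of T helper and regulatory cells, had 12 and 22, and IRF8, a transcription factor of myeloid and B cells, had 13 and 18. Across the 85 promoters the median percentile was 17.6. CTCF lay at 74 of them in at least 2 of 3 shCtrl lists, Matrin 3 at 61 and SATB1 at 9, among them BMF.

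Lost regions were among the weakest H3K27ac regions of the control cells. Each region was ranked by its maximum signal within each shCtrl list, and the mean of both percentiles was taken. Its median was 21.1 over the lost regions (25th and 75th percentiles 11.6 and 32.0, highest 85.0), 27.7 over the partly kept and 62.9 over the retained regions. In shCtrl replicate 1 the median maximum signal was 19 at lost and 41 at retained regions, and in replicate 2 it was 17 and 37. Many lay close to where calling stopped: 51.4% and 57.1% had a total signal under 1.5 times the lowest in the list of replicates 1 and 2, against 7.26% and 8.66% of retained regions. What a fixed threshold on each unscaled list and a fall in acetylation each gave to the losses was not tested.

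Split into 10 equal groups by that percentile, the lost share of regions called in both shCtrl lists went from 32.9% in the weakest group (495 of 1506) to 21.6%, 12.1%, 7.18% and 4.65%. It was 1.26%, 0.997%, 0.332% and 0.133% in the next groups and 0% (0 of 1505) in the strongest. The 5 weakest groups therefore held nearly all lost regions, and 46 lost regions lay in the upper 50% of both shCtrl lists.

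**Figure D1:**
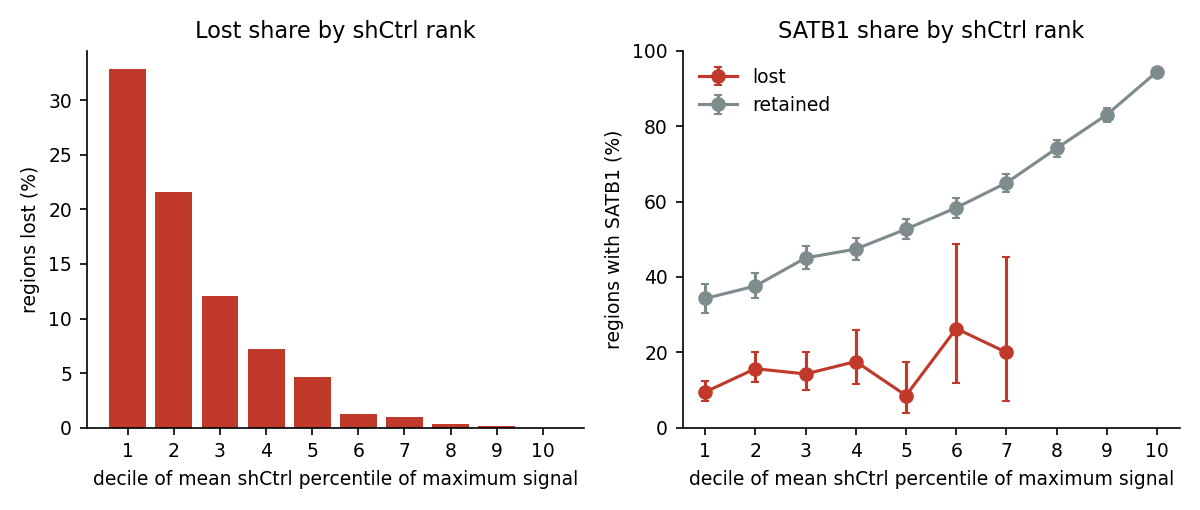
Left, bars give the lost share (%) of H3K27ac regions called in both shCtrl lists, by decile of the mean within-list percentile of maximum signal; it falls from 32.9% to 0%. Right, points give the share (%) with SATB1 at lost and retained regions in each decile with at least 15 regions, with 95% Wilson intervals; the lost points lie below the retained points in each decile shown.

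Lost regions were also narrow. Their median width was 1944 bp (25th and 75th percentiles 1606 and 2402, range 695 to 6750), against 2038 bp for partly kept and 3007 bp for retained regions, and they covered 2.58 Mb of 68.1 Mb. The widest lost region spanned 6750 bp on chromosome 5, 1996094 to 2002843, over the long noncoding RNA LOC105374618. The next were 6606 bp inside MACROH2A1, which encodes a repressive histone H2A variant, 6183 bp in BAHCC1, 6109 bp in GNAO1, a G protein subunit, and 5673 bp in GFRA1, a GDNF coreceptor. Apart from the first, with maximum signals of 45 and 62, these wide regions were weak, with maximum signals between 12 and 21.

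The strongest lost region in the control cells lay at SLC22A16, a carnitine transporter gene (chromosome 6, 110473620 to 110476213). Its maximum signals were 82 and 64 in shCtrl replicates 1 and 2, at percentile 85.0, and the nearest shSATB1 peaks were 83.6 and 83.7 kb away. SATB1, CTCF and Matrin 3 had no peak there. It touched the 2 kb window of a gene end, which none of the 11 regions ranked below it did.

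The second, with maximum signals of 83 and 54, lay over the noncoding gene MIR3667HG on chromosome 22 (49460978 to 49464647), 308.6 kb from BRD1, a scaffold of histone acetyltransferase complexes. SH3KBP1, an adaptor in receptor endocytosis, had 63 and 53 inside the gene on chromosome X (19565544 to 19567508). The wide chromosome 5 region came next, at percentile 75.4. A region 280.9 kb from TBC1D22A had 54 and 49, and 1 lying 182 kb from EBF1, a B cell transcription factor gene, had 52 and 47. Most of the strongest losses were thus far from any gene end.

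The other 6 of the 12 highest lay near KLF15, a zinc finger transcription factor (41 and 61), near LY6H (50 and 44), and inside NR5A2, an orphan nuclear receptor gene (43 and 51). They also lay inside CRACD, a regulator of actin capping (54 and 40), near PAG1, a membrane adaptor that restrains Src kinases in lymphocytes (44 and 49), and inside CCDC171 (42 and 49). Values in parentheses are maximum signals in shCtrl replicates 1 and 2. SATB1 lay at 3 of the 12, NR5A2, CRACD and CCDC171. CTCF lay in all 3 shCtrl lists at the TBC1D22A, KLF15 and LY6H regions, and Matrin 3 lay at the EBF1, LY6H, NR5A2, CRACD and PAG1 regions.

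Some regions sat at the edge of the rule. The lost regions nearest to an shSATB1 peak lay in GALNT2, at 0.064 kb, 99.7 kb from VSIG4, at 0.075 kb, and at FAIM, at 0.117 kb. On the other side, the regions kept by the least shSATB1 overlap lay beside HSD17B7 (448 bp), at LEMD3 (509 bp) and 81.0 kb from DEFB131A (557 bp). Of all lost regions 79 (6.47%) had an shSATB1 peak within 1 kb and 501 (41.0%) within 10 kb, with a median distance of 16.5 kb.

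SATB1 was scarce at the regions that lost H3K27ac. It lay, in both of its lists, at 157 of 1221 lost regions (12.9%, 95% Wilson interval 11.1 to 14.9), at 21.2% of partly kept regions (19.3 to 23.3) and at 63.2% of retained regions (62.4 to 64.1). The interval covers counting error only, since regions are not replicates. The share of retained regions with SATB1 went from 34.3% in the weakest decile to 94.5% in the strongest, while lost regions stayed between 8.57% and 26.3% in the 7 deciles with at least 15 of them. Rank deciles were also cut over all merged regions, in place of those called in both shCtrl lists. Within them the lost share with SATB1 differed from the retained share by -27.2 percentage points. Without regard to rank the difference was -50.4 points. The 1064 lost regions with no SATB1 lay at a median of 21.5 kb from a SATB1 peak of either list, and 36.3% of them had one within 10 kb. For the 4511 retained regions with no SATB1 the values were 13.7 kb and 44.2%.

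CTCF and Matrin 3 were less frequent at lost than at retained regions as well. CTCF, in at least 2 of 3 shCtrl lists, lay at 512 (41.9%, 39.2 to 44.7), against 61.3% of partly kept and 83.7% of retained regions. Gained regions had CTCF less often still, at 35.6% (31.6 to 39.7). Within rank deciles of all merged regions the difference between lost and retained regions was -25.1 points, in place of -41.8. Matrin 3 lay at 474 lost regions (38.8%, 36.1 to 41.6), against 63.3% of partly kept, 54.6% of gained and 89.7% of retained regions. In the shorter Matrin 3 list it lay at 6 lost regions (0.491%) and 11.9% of retained regions, a difference of -11.4 points in place of -50.9.

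Lost regions were often free of all 3 proteins. None of them lay at 468 (38.3%, 35.6 to 41.1), compared with 19.6% of partly kept, 27% of gained and 3.61% of retained regions. All 3 lay at 60 lost regions (4.91%) and at 53.5% of retained regions. The most common single combinations at lost regions were CTCF without the others at 225 regions (18.4%), CTCF with Matrin 3 at 215 (17.6%) and Matrin 3 without the others at 156 (12.8%). SATB1 with neither of the others was found at 42 (3.44%).

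**Figure D2:**
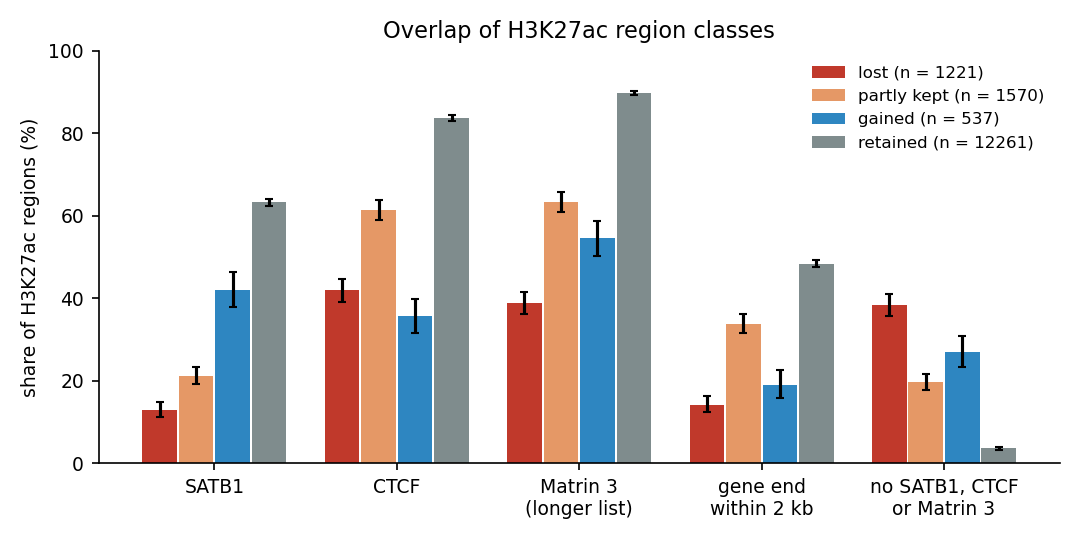
Bars give the share (%) of lost, partly kept, gained and retained H3K27ac regions with SATB1 (both lists), CTCF (at least 2 of 3 shCtrl lists), Matrin 3 (longer list), a protein-coding gene end within 2 kb, or none of the 3 proteins, with 95% Wilson intervals. Lost regions have the lowest share with SATB1 (12.9%) and Matrin 3 (38.8%) and the highest with none (38.3%).

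The 157 lost regions with SATB1 differed from the other lost regions in Matrin 3 more than in CTCF. Matrin 3 lay at 65.6% of them (57.9 to 72.6) and at 34.9% of those with no SATB1 (32.1 to 37.8). CTCF lay at 45.9% (38.3 to 53.7) and 41.4% (38.4 to 44.3). Retained regions followed the same order. With and without SATB1 they had Matrin 3 at 95.5% and 79.8%, and CTCF at 86.3% and 79.3%. Lost regions with and without SATB1 had median percentiles of 24.3 and 20.4, and 14.7% and 14.1% of them lay at a gene end. Those with SATB1 lay farther from retained H3K27ac, at a median of 43.0 kb against 21.2 kb. The 6 highest-ranked lost regions with SATB1 were those in NR5A2, CRACD and CCDC171, in ANKH, a pyrophosphate transporter gene (39 and 31), in REC114, a meiotic recombination gene (36 and 33), and 67.9 kb from SMPDL3A (35 and 34). All 6 lay more than 2 kb from a gene end.

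CTCF peaks at the lost regions were fewer in every shSATB1 library than in any shCtrl library, as they were at retained regions. In shCtrl libraries 1, 2 and 3 a CTCF peak lay at 40.8%, 41.3% and 45.0% of lost regions, and in shSATB1 libraries 1, 2 and 3 at 12.2%, 14.9% and 18.4%. The arms did not overlap, at 42.3% ± 2.28 (SD, n = 3) and 15.2% ± 3.12 (SD, n = 3; two-sided exact permutation p = 0.1, the smallest that 3 against 3 can give). At retained regions the shares were 83.7% ± 1.20 and 57.5% ± 6.49 (exact permutation p = 0.1). No label says that these libraries came from separate cultures, so the p-values compare libraries whose spread can be technical.

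The size of this difference rested on the length of the CTCF lists, which held 31141 to 32540 peaks in shCtrl and 14695 to 20284 in shSATB1. With all 6 lists cut to the 14695 peaks of highest total signal, CTCF lay at 18.4%, 18.9% and 20.4% of lost regions in shCtrl and at 12.2%, 12.2% and 13.2% in shSATB1. The difference was then -6.69 points in place of -27.2 (exact permutation p = 0.1), and -4.92 points at retained regions.

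The gap between lost and retained regions was -41.3 ± 1.09 points in shCtrl and -42.3 ± 3.46 in shSATB1 (SD, n = 3 each), a difference of -0.988 (exact permutation p = 0.8). The difference changed sign without H3K27ac shCtrl replicate 1 (1.41) or 2 (1.54) and without CTCF shSATB1 replicate 3 (0.436). Without H3K27ac shSATB1 replicate 1 it was -3.43 (exact permutation p = 0.1). With CTCF lists of equal length the gaps were -37.9, -37.6 and -36.8 points in shCtrl and -38.5, -39.6 and -39.5 in shSATB1, which did not overlap (difference -1.77, exact permutation p = 0.1). The size of the change was small beside the gap in each of these settings, and its sign depended on single libraries with the lists as deposited. As a ratio, a measure chosen after seeing the data, the lost share was 0.506 ± 0.0199 of the retained share in shCtrl and 0.262 ± 0.0251 in shSATB1 (SD, n = 3 each; exact permutation p = 0.1). The mean shSATB1 share was 0.359 of the mean shCtrl share at lost regions and 0.687 of it at retained regions. With CTCF lists of equal length these values were 0.652 and 0.913, and the lost share was 0.339 ± 0.0157 of the retained share in shCtrl and 0.242 ± 0.00763 in shSATB1 (SD, n = 3 each; exact permutation p = 0.1).

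**Figure D3:**
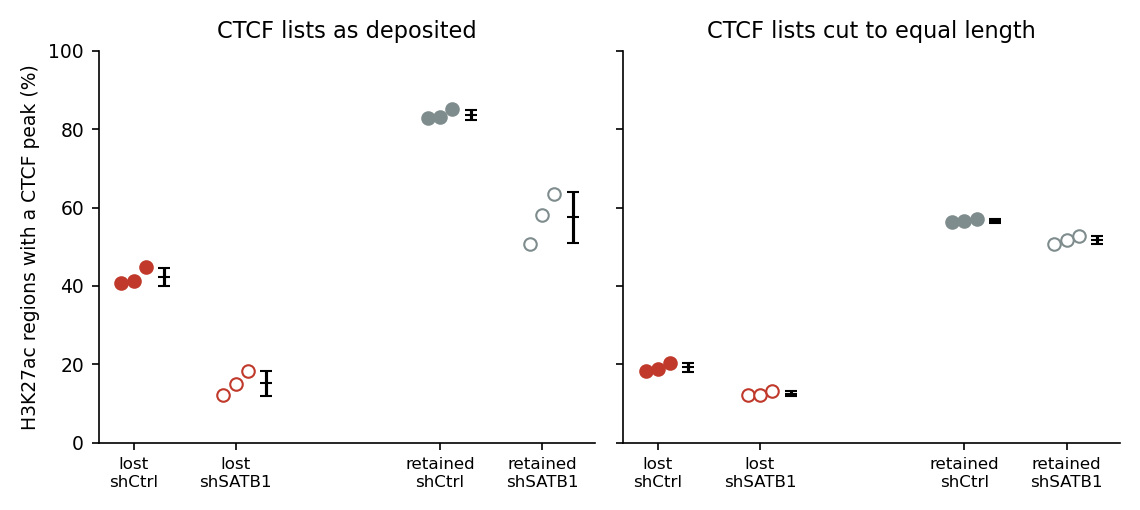
Points give the share (%) of lost and retained H3K27ac regions with a CTCF peak in each of 3 shCtrl (filled) and 3 shSATB1 (open) libraries, with mean and SD at the right of each set; left with lists as deposited, right with all lists cut to 14695 peaks. At lost regions the shCtrl libraries lie between 40.8% and 45.0% and the shSATB1 libraries between 12.2% and 18.4% on the left, and the arms lie closer on the right.

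After knockdown a CTCF peak was called less often in lost than in retained regions among those with CTCF in all 3 shCtrl lists. Any CTCF peak overlapping the region counted, so single sites were not followed. Retained regions were wider, at a median of 3007 bp against 1944 bp, and had more room for such a peak. Of 430 lost regions with CTCF in all 3 shCtrl lists, 185 (43.0%, 38.4 to 47.7) had CTCF in no shSATB1 list. The share was 17.8% (17.1 to 18.6) of 9800 such retained regions and 34.3% of 872 partly kept regions, and 21.1% of all 13143 merged H3K27ac regions with CTCF in all 3 shCtrl lists. Over CTCF regions anywhere it was 28.7% of 27006. In shSATB1 libraries 1, 2 and 3 a CTCF peak remained at 34.7%, 42.1% and 51.9% of the lost regions and at 63.4%, 72.6% and 78.9% of the retained.

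CTCF peaks at lost regions ranked lower in shCtrl, at a median percentile of 47.9 against 67.6, so both classes were also compared within 5 equal groups of CTCF percentile. From the weakest to the strongest group CTCF remained, as a mean over the 3 shSATB1 libraries, at 9.25%, 32.6%, 60.6%, 77.1% and 91.2% of lost regions. At retained regions it remained at 19.0%, 52.5%, 82.4%, 96.8% and 99.5%. The lost share was the lower one in every group and in each of the 3 shSATB1 libraries. The groups held between 57 and 155 lost regions and were not matched for region width.

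The 6 highest-ranked lost regions that had CTCF in all 3 shCtrl lists and in none after knockdown lay mostly outside genes. They were the region 280.9 kb from TBC1D22A (54 and 49), 1 at 2.26 kb from CCDC174 (44 and 36), and 1 inside CYP19A1, the aromatase gene (41 and 35). The others lay 52.7 kb from TACC1 (51 and 26), 2.88 kb from SH3TC1 (38 and 32) and 23.2 kb from CDH20, a cadherin gene (40 and 27). None of them carried SATB1, and Matrin 3 lay at the TACC1 and CDH20 regions.

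Lost regions lay away from gene ends. An annotated end of a protein-coding gene lay within 2 kb of 173 lost regions (14.2%, 12.3 to 16.2), of 33.8% of partly kept, 19.0% of gained and 48.4% of retained regions. Without shSATB1 replicate 1 the difference between lost and retained was -22.7 points in place of -34.2. Another 569 lost regions (46.6%) lay elsewhere inside a gene and 479 (39.2%) outside genes, against 29.4% and 22.2% of retained regions. Counting the 5′ end alone, the shares were 9.09% of lost and 39.4% of retained regions. Exons, introns and UTRs were not told apart. Of the 479 outside protein-coding genes, 138 (28.8%) overlapped a long noncoding RNA gene, against 36.4% of such retained regions. A microRNA gene was overlapped by 1 lost region and by 139 retained regions (1.13%).

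Lost regions at gene ends looked more like retained ones in CTCF than the rest did. CTCF lay at 72.3% of the 173 at ends and 36.9% of the 1048 others, Matrin 3 at 56.1% and 36.0%, and SATB1 at 13.3% and 12.8%. In shCtrl libraries 1, 2 and 3 a CTCF peak lay at 71.1%, 72.8% and 74.0% of all lost regions at ends and at 35.8%, 36.1% and 40.2% of the others. In shSATB1 libraries 1, 2 and 3 it lay at 37.0%, 45.1% and 49.1% of those at ends and at 8.11%, 9.92% and 13.4% of the others. Among the 69 lost promoters with CTCF in all 3 shCtrl lists, 13 had it in no shSATB1 list. The shares with such CTCF given above, 43.0% of lost, 17.8% of retained and 21.1% of all merged H3K27ac regions, counted regions at any position. Here promoters were counted, and those that share a region were counted more than once. Retained promoters were not counted in this way. GADD45B and BMF kept CTCF in all 3 shSATB1 lists, whereas CCR4 and IRF8, with CTCF in all 3 shCtrl lists, had it in none. The IRF8 region lay inside the gene and not within 2 kb of an end of IRF8.

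Genes with a lost region in the body or within 2 kb were longer in the median than other genes with H3K27ac. A longer gene has more room to hold a region, and genes with equal numbers of regions were not compared. Of 9178 protein-coding genes with H3K27ac of both shCtrl lists in the body or within 2 kb, 736 had a lost region there (8.02%), and their median length was 84.8 kb against 31.4 kb for the other 8442. Of 7839 genes with such H3K27ac at an end, 205 had a lost region at an end (2.62%). The 149 genes with a lost and no retained region at an end had a median length of 29.7 kb. In 290 genes the gene held a lost region and no retained one. A single lost region was found in 684 genes, 2 in 42 genes and 3 or more in 10 genes.

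CMSS1 and FILIP1L, which overlap on chromosome 3 and share the regions, and SPTBN1, which encodes a spectrin of the membrane skeleton, each held 4 lost regions. DAB1, an adaptor of reelin signalling, GFRA1, GRK3, a kinase of G protein-coupled receptors, and HIVEP3, a zinc finger protein, held 3 each. So did RAD51B, a DNA repair gene, ST6GAL1, a sialyltransferase gene, and TBC1D22A, a gene with a Rab GTPase-activating domain. These 10 genes spanned 148.0 to 1552 kb, none had a lost region within 2 kb of an end, and all held at least 1 retained region, up to 8 in HIVEP3. In SPTBN1 the lost regions had maximum signals of 21 and 30, 13 and 13, 14 and 17, and 14 and 9 in shCtrl replicates 1 and 2. TBC1D22A held stronger ones, up to 40 and 23, where CTCF was called in all 3 shCtrl lists and no shSATB1 list.

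Over 21 lists of pathways and cell type markers together, the share of genes with a lost region was close to that of all genes, and the lists differed among themselves. Of 243 genes on these lists that had H3K27ac in both shCtrl lists, 18 held a lost region (7.41%, against the 8.02% of all genes), and 6 of 216 had one at an end (2.78%, against 2.62%). The lists were chosen with earlier results of these data known. No lost region lay in any of 18 T-lineage transcription factor genes, 13 thymocyte coreceptor and recombination genes, 11 cytokine and cytokine receptor genes, 7 Notch pathway genes or 18 apoptosis genes. There were also none in 22 genome architecture genes, 17 ribosomal protein genes, 5 B cell, 3 myeloid, 2 epithelial and stromal or 2 neuronal marker genes. These counts hold for the listed genes alone: BMF and FAIM, described above, were not on the apoptosis list. With lists this short, the absence of a lost region was not read as a result about the pathway.

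T cell receptor signalling genes held lost regions in 3 of 18, none at an end. They lay in FYN, a Src family kinase (maximum signals 9 and 15), in CD28, the costimulatory receptor (11 and 9), and in CD5, an inhibitory receptor (38 and 22). The CD5 region (chromosome 11, 61110970 to 61112554) stood at percentile 47.5, and those in FYN and CD28 at 6.37 and 1.44. The CD28 region lay 1.37 kb from a retained region. Each of the 3 genes also held retained H3K27ac.

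T-ALL oncogenes and tumour suppressors held them in 4 of 12, with 2 at an end. LYL1, a basic helix-loop-helix factor activated in T-ALL, had one at an end (18 and 15), with CTCF in 3 shCtrl and 2 shSATB1 lists. NRAS had one over its start (14 and 18, chromosome 1, 114715647 to 114717245) with no SATB1, CTCF or Matrin 3. FBXW7, the ubiquitin ligase subunit that marks NOTCH1 for degradation, had one in its body (21 and 25) with SATB1, Matrin 3 and CTCF, the last in all 3 shCtrl lists and no shSATB1 list. ARID5B, which encodes a DNA-binding protein, had one in its body (16 and 14), 0.355 kb from an shSATB1 peak.

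Among surface and signalling genes, CCR4 was the 1 of 7 chemokine and egress genes with a lost region (chromosome 3, 32951166 to 32953933), and it held no retained region. Of 16 adhesion genes, CD58, the ligand of CD2, had one at an end (14 and 16) with CTCF in all 3 shCtrl and no shSATB1 lists, and CD47, which restrains phagocytosis, had one in its body (19 and 9). NR4A1, a nuclear receptor induced by T cell receptor signals, was the 1 of 17 immediate-early genes, with a region 1.44 kb from an end (20 and 16) and another in its body (24 and 18). Both kept CTCF in all 3 shSATB1 lists, and the second was 1 of the 6 lost regions in the shorter Matrin 3 list. PPP3CA, the catalytic subunit of calcineurin, was the 1 of 16 calcium, NFAT and NF-kappaB genes (17 and 11).

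Among genes of histone acetylation, HDAC1, a deacetylase, had a lost region in its body (24 and 37, chromosome 1, 32321337 to 32322982, percentile 49.3), with CTCF in all 3 shCtrl and no shSATB1 lists. HDAC4, another deacetylase, had a weak one in its body, with maximum signals of 9 and 12. CDKN1A, the cell cycle inhibitor p21, was the 1 of 16 cell cycle genes (18 and 18). Among markers of other blood cells, NFE2, an erythroid and megakaryocyte factor, had one at an end (11 and 12), and ZBTB16, a factor of innate-like T cells, had one in its body (17 and 15).

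No lost region lay in or within 2 kb of SATB1 itself (chromosome 3, 18345377 to 18445592). The gene held 5 retained regions and 1 partly kept region, and the nearest lost region was 1876 kb away.

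Neighbours of lost regions were lost slightly more often than regions at large, and most lost regions stood alone. Of the regions next to a lost region on either side, 172 of 2436 were lost too (7.06%, 6.11 to 8.15), against 5.95% of all merged regions. Among regions called in both shCtrl lists the values were 9.86% (8.74 to 11.1) and 8.11%. Adjacent lost regions were counted from both sides, so these intervals are too narrow and do not place either difference beyond counting error. Among all merged regions, where the values were 7.06% and 5.95%, both were higher without shCtrl replicate 2, at 15.01% against 11.8%. Without shCtrl replicate 1 they were 11.8% and 10.1%. For shSATB1 replicate 1 left out they were 12.9% against 12.5%, and for shSATB1 replicate 2 left out 9.01% against 7.87%. Joined at gaps of up to 50 kb, 1029 lost regions (84.3%) stood alone, 83 pairs were found, and 8 clusters held 3 or 4.

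On chromosome 5, between 1965203 and 2021739, 4 of 5 H3K27ac regions over 56.5 kb were lost, around LOC105374618 and 6.03 kb from LOC124901165. Their maximum signals in shCtrl replicates 1 and 2 were 14 and 11, 25 and 25, 45 and 62, and 17 and 19. The retained region among them had 36 and 28 in shCtrl and 13 and 12 in shSATB1, on scales that cannot be set against each other. SATB1 lay at the second lost region, and CTCF at the second and the last.

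The other cluster of 4 lay in CMSS1 and FILIP1L (chromosome 3, 100015927 to 100106941), with maximum signals of 29 and 19, 15 and 9, 19 and 20, and 18 and 21. SATB1 lay at the first and the third of these, and CTCF, in at least 2 shCtrl lists, at none. A retained region with SATB1 stood 0.461 kb from the second, with 57 and 60 in shCtrl.

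Clusters of 3 lay in GRK3 (over 25.1 kb, maximum signals from 10 to 25), in ST6GAL1 (48.7 kb, 12 to 20) and 28.7 kb from GABRG3, a GABA receptor gene (53.9 kb, 11 to 21). None of the lost regions in GRK3 and ST6GAL1 had SATB1 or CTCF, and 1 of those near GABRG3 had both. Each of these clusters also held at least 1 retained region, so retained regions stood among the losses there. The other clusters of 3 lay 85.6 kb from TOP1, at UMODL1, and on both sides of TNFAIP3, the NF-kappaB inhibitor A20, where a retained region of 19562 bp lay between the lost ones.

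**Figure D4:**
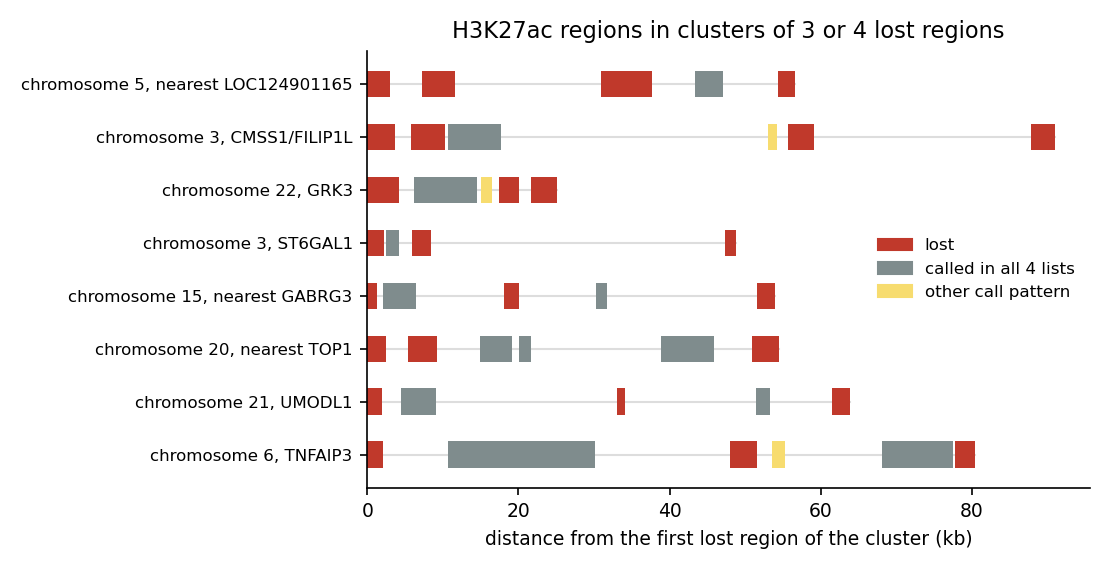
Each line is a cluster of 3 or 4 lost H3K27ac regions, with distance from its first lost region on the x axis (kb), lost regions in red, regions called in all 4 lists in grey and regions with another call pattern in yellow. Retained regions lie between lost ones in each of the 8 clusters.

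On chromosomes 21, 5 and 19 the interval of the lost share left out the share of all chromosomes. Of regions called in both shCtrl lists, 13.1% were lost on chromosome 21 (26 of 199, 9.07 to 18.5) and 4.19% on chromosome 19 (27 of 644, 2.90 to 6.03), against 8.11% overall. On chromosome 5 it was 10.6% (82 of 771, 8.65 to 13.0), and the other chromosomes lay between 5.78% and 9.68%. Chromosome 19 is rich in genes: 69.1% of its regions in both shCtrl lists lay at a gene end, against 33.7% on chromosome 21 and 44.1% overall. On chromosome 5 this share was 42.9%. Chromosome 18 had 33.2% at a gene end and a lost share of 5.78%. A link between gene ends and the lost share of a chromosome was not tested. Chromosomes 21, 5 and 19 were picked from 23 chromosomes after their values were seen.

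**Figure D5:**
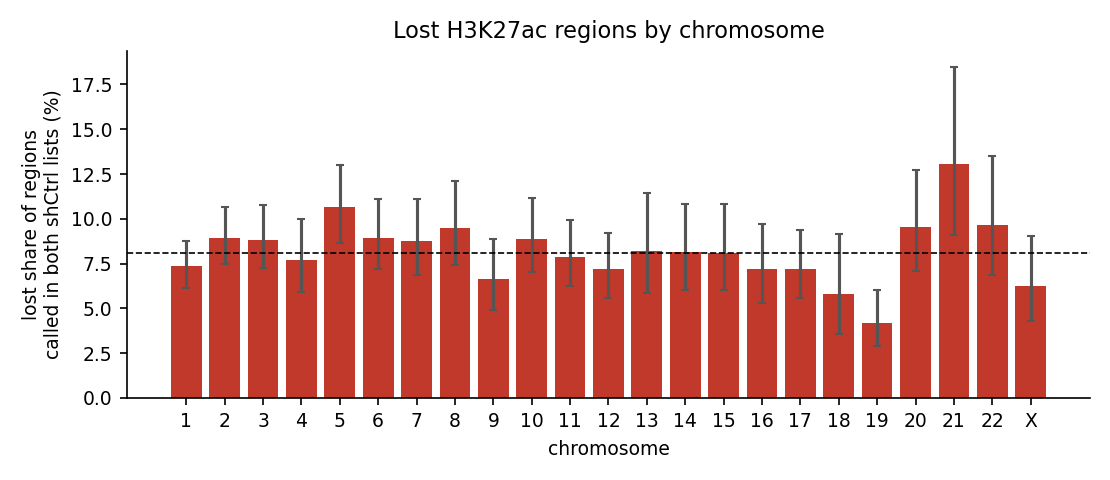
Bars give, by chromosome, the lost share (%) of H3K27ac regions called in both shCtrl lists, with 95% Wilson intervals; the dashed line is the 8.11% of all chromosomes. Chromosome 21 (13.1%) is highest and chromosome 19 (4.19%) lowest.

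Lost regions lay about as close to retained H3K27ac as retained regions lay to each other, with a longer tail. The median distance from edge to edge was 24.0 kb for lost and 21.9 kb for retained regions, and 436 lost regions (35.7%) lay within 10 kb, against 34.4%. At the far end, 24.0% of lost regions (293) had no retained region within 100 kb, while 82.5% of retained regions had another that close. Lost regions within 1 kb of a retained one numbered 112 (9.17%, against 7.42%). Examples were the regions near LY6H (0.418 kb) and PAG1 (0.747 kb).

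Lost regions near retained H3K27ac carried SATB1 and Matrin 3 less often than those farther from it, while the CTCF intervals overlapped. SATB1 lay at 8.26% (6.02 to 11.2) of the 436 within 10 kb and at 15.4% (13.1 to 18.1) of the 785 farther away. Matrin 3 lay at 26.4% (22.5 to 30.7) and 45.7% (42.3 to 49.2), and CTCF at 36.9% (32.5 to 41.6) and 44.7% (41.3 to 48.2). Their median percentiles were 18.4 and 22.3. Of the 293 beyond 100 kb, 17.4% carried SATB1, 47.1% Matrin 3 and 39.3% CTCF. The strong regions of NR5A2, CRACD, CCDC171 and SH3KBP1 and those nearest to TBC1D22A and KLF15 were among them. SATB1 lay at the NR5A2, CRACD and CCDC171 regions and not at the SH3KBP1, TBC1D22A and KLF15 regions.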

How the data were processed

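The authors deposited 1 peak list for each of 14 libraries, with no header. Each list, as deposited by the authors, gives coordinates and unscaled whole-number signal (coverage), summed over the peak and at its maximum. Trim Galore, Bowtie2, SAMtools, deepTools, SEACR and, except for Matrin 3, MACS2 were named, and the build was GRCh38, per the submitters' processing notes. Versions and control libraries: not given in the sources used here. Of 273747 deposited peaks, 405 (0.148%) outside chromosomes 1 to 22 and X were left out.

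H3K27ac peaks were merged at 1 bp, and a library called a region when any of its peaks overlapped. Signal was used to rank peaks within a list. Shares carry 95% Wilson intervals (counting error only). CTCF libraries were compared by exact permutation (two-sided), where p cannot go below 0.1, or 0.25 in pairs. The functions were tested on simulated lists.

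The members and gene lists (359 distinct genes, 358 matched in the RefSeq GRCh38.p14 table) were chosen with earlier results of these data known. Named by rule were the 12 highest-ranked lost regions, genes of the 5 largest clusters, genes with 3 or more lost regions, listed genes at an end or up to 4 per list in the body, 3 regions on each side of the rule, the 5 widest, the 6 highest with SATB1, the 6 highest that CTCF left, SATB1, and up to 6 promoters of named genes. Other genes were chosen after their values were seen. Computation was in Python 3.11.15 with scipy 1.17.1, pandas 2.3.3 and numpy 2.4.6, and plots were made in matplotlib 3.10.9. Results on some genes are not reported here. Positions are 1-based.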

Additional observations from a re-analysis of the deposited data

How the results depend on the processing

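Of 106 other settings, 61 were counted as the same, 42 as moved and 3 as turned in sign. All 3 were for the change of the CTCF gap (1.409, 1.539 and 0.4362, the libraries being named above). Counts and shares were the same within 1.5 times the count or within their interval. The CTCF difference after knockdown and the change of the gap were counted as the same wherever the sign held, whatever the size. They gave 16 and 15 of the 61. Among the 16 was the fall of the difference from -27.16 to -6.69 points with CTCF lists of equal length. Leaving out 1 library, which removes a condition of the rule, gave 1591 to 2437 lost regions in place of 1221. The difference between lost and retained regions ranged from -51.9 to -44.5 points for SATB1, -43.6 to -30.2 for CTCF, -53.3 to -37.6 for Matrin 3 and -31.6 to -22.7 for gene ends. The share within 10 kb of retained H3K27ac ranged from 35.2% to 40.4%. Lost neighbours ranged from 9.01% to 15.01%, while the lost share of all merged regions ranged from 7.87% to 12.5%. The CTCF difference after knockdown ranged from -29.8 to -24.7 points and the change of the gap from -3.43 to 1.54. With H3K27ac lists of equal length, Matrin 3 gave -47.6, the share within 10 kb 32.3% and lost neighbours 8.61%. Windows of 500 bp gave -42.2 for SATB1, -36.3 for CTCF, -44.8 for Matrin 3, -30.0 for gene ends and 26.5% within 10 kb; joining peaks within 1 kb gave 29.1%. Within width deciles of all merged regions SATB1 gave -39.9 and gene ends -42.0. Within rank deciles of all merged regions SATB1 gave -27.2, CTCF -25.1, Matrin 3 -36.0 and gene ends -29.0. CTCF in all 3 shCtrl lists gave -44.7 and the shorter Matrin 3 list -11.4. Gene ends gave -29.7 with 5 kb and -30.3 with the 5′ end. Within 50 kb of retained H3K27ac lay 63.3%, and within 10 kb of an shSATB1 peak 41.0%. Neighbours among regions in both shCtrl lists gave 9.86%, and listed genes at ends alone 2.78%. With the replicate number as a block, the CTCF difference of -27.16 points had p = 0.25 and the change of the gap of -0.9884 p = 0.75 (exact permutation in pairs). The numbers did not pair the CTCF libraries: deviations of same-numbered libraries correlated at -0.00368, -0.00959 and 0.0178. With equal CTCF lists the gap changed by -1.77 points (exact permutation p = 0.1). The causes were not tested. Unknown depth limits every call, and an absent peak does not show absent acetylation.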

Other observations

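The 46 lost regions in the upper 50% of both shCtrl lists lay outside genes more often than lost regions at large, at 54.3% (95% Wilson interval 40.2 to 67.9) against 39.2%, and 3 of them (6.52%) lay at a gene end. SATB1 lay at 9 of the 46 (19.6%), and CTCF and Matrin 3 each at 18 (39.1%). Among those not yet described, 1 on chromosome 2 (136393857 to 136396104) had CXCR4, a chemokine receptor gene of T cells, as its nearest protein-coding gene, at 275.7 kb, with maximum signals of 44 and 45. Others lay 7.32 kb from SEC62, a gene of protein translocation into the endoplasmic reticulum (40 and 48), 18.2 kb from PSMD7, a proteasome subunit gene (40 and 32), and inside CHFR, a mitotic checkpoint gene (40 and 31). These 4 were chosen after their values were seen.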
